A study of Homo sapiens with 6 samples.

Results

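BR200 is a variant of HT-29, an established human colon adenocarcinoma line, that was obtained by long growth in the proteasome inhibitor bortezomib. Its gene expression was compared with that of HT-29 cells labelled wild type. The members are the 2 BR200 arrays and the 2 wild type arrays, chosen by the cell variant in the labels, which makes 4 of the 6 arrays of the series. The other 2 arrays hold BR100, a second resistant variant, which shares the error estimate and enters a contrast of its own where that is stated.

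For each variant 1 array was labelled with the 3' IVT Express kit, starting from 100 ng of RNA, and 1 with the One-Cycle kit, starting from 3 ug. Every pair of levels is given in that order, Express first. Per the labels, the cells grew for 7 months in bortezomib that began at 20 nM and was stepped up to 300 nM. Clonal isolates followed from 2 limiting dilutions, kept at 100 or 300 nM over 4 more months. This treatment is written for all 6 samples alike, so the labels do not say whether the wild type cells met the drug. The labels give no cloning dose for BR200 itself and do not say whether drug was present at harvest. All variants were grown in McCoy's medium with glutamine, glucose and serum. No label states separate cultures for the arrays of one variant, so p-values measure the spread between these arrays, which may be technical. Features of 1 clone and features of resistance cannot be told apart with a single BR200 isolate.

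The proteasome is the large protease that degrades proteins tagged with ubiquitin. Its barrel-shaped 20S core holds the cutting sites, and the 19S regulator recognizes, unfolds and feeds in substrates. Bortezomib binds mainly the chymotrypsin-like site, which is formed by PSMB5. When the proteasome is blocked, cells accumulate misfolded proteins, and 2 responses are well known: the transcription factor NFE2L1 raises proteasome subunit genes, and the ATF4 branch of the stress response raises genes of amino acid supply and, through DDIT3 (CHOP), of cell death.

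Levels are log2 values with the background already removed, 1 probe set per gene. A gene was called higher or lower at a Benjamini-Hochberg adjusted p under 0.05 in limma, over the 10370 genes tested. The arrays of one variant correlated at r = 0.985 (wild type) and 0.983 (BR200) across these genes, and BR200 correlated with wild type at 0.904 on Express and 0.902 on One-Cycle arrays; genes are not independent replicates. Between 10042 and 10153 genes reached log2 4 on an array. A gene whose 2 levels in a variant are both under 4 is described as near background there, and the size of its change then rests on the background estimate.

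The epithelial label was borne out in part by its markers. EPCAM, KRT8, KRT18, KRT19, KRT20 and CDH1 lay between 13.31 and 15.43 on all 6 arrays. The intestinal genes CDX1, CDX2, CDH17 and GPA33 lay between 2.23 and 2.91 on all 6 arrays, near background in wild type and resistant cells alike. Of the same list LGALS4, VIL1 and CEACAM5 were measured in wild type, at 13.48 and 13.04, 8.54 and 8.20 and 8.75 and 8.37, and were lower in BR200, at 7.94 and 7.46, 6.68 and 6.57 and 7.06 and 6.23. Of 12 blood cell markers 8 were measured; PTPRC, CD3E and MS4A1 were at 2.23, the floor of these arrays, throughout, while LYZ lay between 14.34 and 14.84 and CD14 between 5.33 and 6.76. Fibroblast and endothelial markers were near background except COL1A1, ACTA2, TAGLN and ENG, none above 5.94. The 3' minus 5' gap of the ACTB probe sets, which reflects RNA integrity and labelling, was 4.22 and 2.99 in wild type against 3.24 and 1.76 in BR200. For GAPDH the gap was 0.48 and 0.40 against 0.20 and 0.18. This gap moved with the variant throughout, so it stands beside every gene group described here, and its part in the differences was not tested. ACTB itself was higher in BR200 by 0.40 (SE 0.0771) and GAPDH by 0.50 (SE 0.0731) on the log2 scale.

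**Figure D1:**
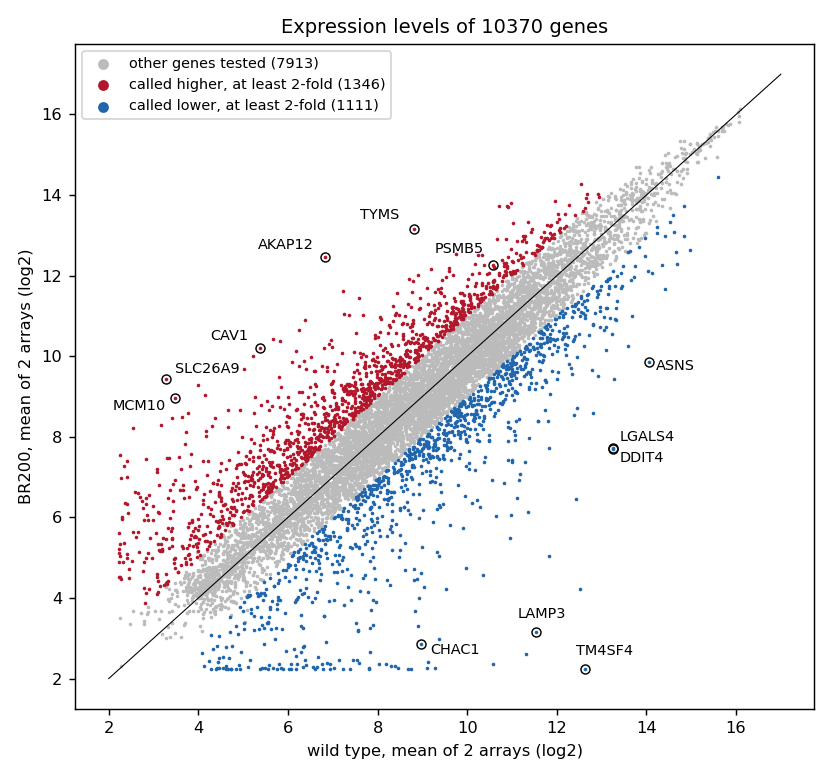
Mean log2 level of each of the 10370 genes tested, with wild type on the horizontal and BR200 on the vertical axis (mean of 2 arrays each). Red and blue points were called and changed at least 2-fold, 1346 upward and 1111 downward, and circles mark 12 genes named in the text; TM4SF4, LAMP3 and CHAC1 lie at the lower edge, near background in BR200.

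BR200 differed from wild type over a large part of the genome. Of 10370 genes, 6901 (66.5%) were called, 3668 higher (35.4%) and 3233 lower (31.2%), and 2457 (23.7%) were called with a change of at least 2-fold. A call alone therefore says little about a gene: 34.1% of the called genes moved less than 1.5-fold, and the median SE of a log2 change was 0.0876. Without the replicate block for the kit, 4100 genes were called. All 6901 called genes moved in the same direction on both kits. The share of all genes without overlap between the variants was not counted, so non-overlap of a named gene does not set it apart. At 4-fold or more there were 338 higher and 341 lower genes, and at 16-fold or more 33 and 74. The tail was thus longer on the falling side. In all, 155 called genes left the background range in BR200 and 153 entered it. In bulk RNA, fewer cells that express a gene and less RNA per cell cannot be told apart.

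Promoter sequences of 3 gene groups are shown first, because their lists had large median changes: interferon-stimulated genes, targets of ATF4 with the genes of amino acid supply, and DNA replication genes. Promoters ran from 250 bases before to 50 bases after the start in RefSeq (GRCh38.p14), and 8620 of the 10370 genes tested had one. Each stretch holds 80 bases before the start of a called gene, and those with the largest change among members with a match there were taken. Bases are 5′ to 3′ on the gene's strand, and capitals mark the motif on either strand. The first motif is the interferon response element, written GAAANNGAAA.
IFI44L: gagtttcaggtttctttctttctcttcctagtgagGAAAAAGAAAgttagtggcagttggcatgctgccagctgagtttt
IFI6: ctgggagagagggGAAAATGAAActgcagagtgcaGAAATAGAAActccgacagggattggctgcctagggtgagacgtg
EPSTI1: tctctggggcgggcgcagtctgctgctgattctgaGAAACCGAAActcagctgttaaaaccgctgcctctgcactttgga
These lie at chr1:78620340-78620419 (plus strand), chr1:27672241-27672320 (minus strand) and chr13:42992247-42992326 (minus strand). IFI6, a mitochondrial protein that interferon induces, carries 2 copies in its stretch and the others 1. In wild type the 3 genes were at 10.93 and 11.28, 13.42 and 11.49 and 8.64 and 8.31, and in BR200 at 6.48 and 6.46, 10.26 and 7.16 and 5.58 and 4.45. All 3 were lower in BR200 on both kits, with no overlap between the variants. The motif was present in 20 of the 28 interferon-stimulated genes with a promoter (71.4%), against 2.78% of genes tested and 3.65% of all 27305 promoters. The 20 with the motif had a median change of −1.59 and the 8 without it −2.62.

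The second motif, TGATGNAA, is the composite element that ATF4 binds together with C/EBP partners. It was searched in the ATF4 targets and in the genes of serine and amino acid supply.
CHAC1: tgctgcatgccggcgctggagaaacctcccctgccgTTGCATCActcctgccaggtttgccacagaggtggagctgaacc
ASNS: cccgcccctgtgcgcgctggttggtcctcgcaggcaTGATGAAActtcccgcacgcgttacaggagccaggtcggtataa
FGF21: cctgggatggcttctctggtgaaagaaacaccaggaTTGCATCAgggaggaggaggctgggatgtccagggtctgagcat
They lie at chr15:40953226-40953305 (plus strand), chr7:97872433-97872512 (minus strand) and chr19:48755434-48755513 (plus strand). CHAC1 degrades glutathione, ASNS makes asparagine and FGF21 is a secreted hormone of the starvation response. CHAC1 stood at 9.02 and 8.92 in wild type against 2.91 and 2.81 in BR200, ASNS at 13.99 and 14.13 against 9.86 and 9.84, and FGF21 at 4.12 and 4.34 against 2.44 and 2.44. The variants did not overlap for any of them, and CHAC1 and FGF21 were near background in BR200. The element was found in 3 of 17 ATF4 targets (17.6%), 2 of 9 serine and one-carbon genes (22.2%) and 3 of 13 amino acid transporters (23.1%), against 1.75% of genes tested and 3.67% of all promoters. The 3 ATF4 targets with it had a median change of −1.79 and the 14 without it −2.84.

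The third motif is the E2F site of S phase genes, searched as TTTCCCGC or TTTGGCGC.
GINS2: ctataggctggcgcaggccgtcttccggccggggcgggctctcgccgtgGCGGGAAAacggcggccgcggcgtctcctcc
LIG1: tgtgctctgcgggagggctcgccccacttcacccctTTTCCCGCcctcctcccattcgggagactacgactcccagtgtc
CDT1: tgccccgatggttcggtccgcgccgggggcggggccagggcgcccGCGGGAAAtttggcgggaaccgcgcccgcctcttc
They lie at chr16:85688955-85689034 (minus strand), chr19:48170415-48170494 (minus strand) and chr16:88803709-88803788 (plus strand). GINS2 belongs to the replicative helicase, LIG1 joins Okazaki fragments and CDT1 licenses origins. Levels were 5.59 and 5.73 in wild type and 10.42 and 10.42 in BR200 for GINS2, 4.86 and 4.46 in wild type and 8.41 and 8.06 in BR200 for LIG1, and 6.82 and 7.15 in wild type and 10.07 and 10.39 in BR200 for CDT1. The lower of the BR200 values exceeded the higher wild type value for each gene. Of 36 replication genes with a promoter, 15 held the site (41.7%), against 3.9% of genes tested and 2.31% of all promoters. The 15 with the site had a median change of 2.93 and the 21 without it 2.12. A looser form, TTTNNCGC, which contains both, was in 20 of 36 (55.6%) against 11% of genes tested and 6.9% of all promoters. The motifs describe these windows and name no factor at work.

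Genes of the proteasome itself were higher in BR200, in the core, the regulator and the alternative caps. All 13 core genes measured were called higher, with changes from 0.32 to 1.69 and a median of 0.93, where 35.4% of all genes were higher and their median change was 0.04. The catalytic subunit PSMB5 was at 10.76 and 10.38 in wild type and 12.42 and 12.11 in BR200, a change of 1.69 (SE 0.0664) with adjusted p = 0.000193. The other standard catalytic subunits moved less: PSMB6, the caspase-like site, rose by 1.23 (SE 0.0641) and PSMB7, the trypsin-like site, by 0.81 (SE 0.0721). PSMA6 was not analysed here. The 19S regulator had 14 members higher and 2 lower among 16. The ATPase PSMC1 rose by 1.35 (SE 0.0818), while PSMD2, a scaffold of the base, fell by 0.84 (SE 0.0809) and PSMD8 by 0.43 (SE 0.0684).

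The interferon-inducible catalytic subunits were higher as well, although interferon-stimulated genes in general were lower. PSMB9 was at 7.01 and 6.62 in wild type and 9.16 and 8.67 in BR200. PSMB8 was at 8.57 and 8.13 in wild type and 9.72 and 9.18 in BR200, and PSMB10 at 9.50 and 8.69 in wild type and 10.85 and 10.04 in BR200. None of the 3 overlapped between the variants, and the changes were 2.10 (SE 0.0857), 1.10 (SE 0.0967) and 1.35 (SE 0.0639). Cap proteins that open the core without ubiquitin rose too, PSME1 by 0.99, PSME3 by 0.97 and PSME4 by 0.81, while PSMF1, a proteasome inhibitor, fell by 0.33. Of 9 assembly genes 6 were higher (66.7%, against 35.4% of all genes) and none lower, led by the chaperone PSMG1 at 1.36 (SE 0.0943). The count was 3 with no replicate block, and without the Express or the One-Cycle array of BR200 2 and 3. POMP, which matures the core, rose by 0.39 (SE 0.0697).

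The regulators of proteasome genes moved in the other direction. Of 8 tested, 6 were lower and 2 higher, with a median of −0.58 (31.2% of all genes were lower). NFE2L1 was at 11.85 and 11.95 in wild type and 10.03 and 10.07 in BR200, so its transcript was lower where the transcripts of its known targets were higher. Its small MAF partner MAFF fell by 1.94 (SE 0.0849) and the related repressor BACH1 by 1.31 (SE 0.0858). NFE2L2, which encodes NRF2, fell by 0.53 (SE 0.0647), and KEAP1, its inhibitor, rose by 0.57 (SE 0.073). HSF1, the heat shock factor, fell by 0.58 (SE 0.118).

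Some proteasome genes lie on chromosome 14, where most genes tested were higher in BR200. PSMA3 and PSMB5 of the core, PSMC1 and PSMC6 of the regulator and PSME1 of the caps are there. The 11 core genes on other chromosomes were all called higher, with a median of 0.93. Of the 14 regulator genes on other chromosomes 12 were called higher, and the median of the 14 was 0.67. The part of location in these differences was not tested. Against BR100, no core, regulator or assembly gene was called.

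The counts of ubiquitin enzymes were near those of all genes. Of 24 activating and conjugating enzymes 11 rose and 7 fell (45.8% and 29.2%, against 35.4% and 31.2% of all genes). UBE2T, the conjugating enzyme of the Fanconi anaemia pathway, rose by 2.68 (SE 0.0927) and UBA1, the main activating enzyme, by 0.94 (SE 0.0866). UBE2L6, which conjugates the interferon-induced modifier ISG15, fell by 1.75 (SE 0.0709). Deubiquitinases leaned downward, 16 lower and 9 higher of 29, with a median of −0.26. The lowest was USP18, which removes ISG15, at −1.53 (SE 0.103). With no block the counts were 5 and 2 for the enzymes and 9 lower and 4 higher for the deubiquitinases. Without the Express array of BR200 4 enzymes were lower, and 9 deubiquitinases were lower and 5 higher; without the One-Cycle array of BR200 10 deubiquitinases were lower.

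Chaperones were more often higher than lower. Of 25 cytosolic and mitochondrial chaperone genes 13 rose and 5 fell (35.4% higher and 31.2% lower over all genes). The small heat shock protein HSPB1 stood out at 7.95 and 8.82 in wild type and 10.61 and 11.44 in BR200, a rise of 2.64 (SE 0.103). BAG2, a co-chaperone, rose by 1.27 (SE 0.0831), and the mitochondrial chaperones DNAJA3 and HSPA9 fell by 1.12 (SE 0.0715) and 0.91 (SE 0.0788), while HSPE1 and TRAP1, also mitochondrial, rose by 0.98 (SE 0.0921) and 0.34 (SE 0.0894). HSPA1B was not analysed here. Of 12 subunits of the CCT chaperonin and prefoldin 8 rose and 1, PFDN2, fell by 0.70. With no block for the kit 6 chaperones and 4 CCT or prefoldin genes were called higher, beside 2177 of all 10370 genes in that fit. Without the One-Cycle array of BR200 these counts were 8 and 5, and without its Express array 5 CCT or prefoldin genes were higher.

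**Figure D2:**
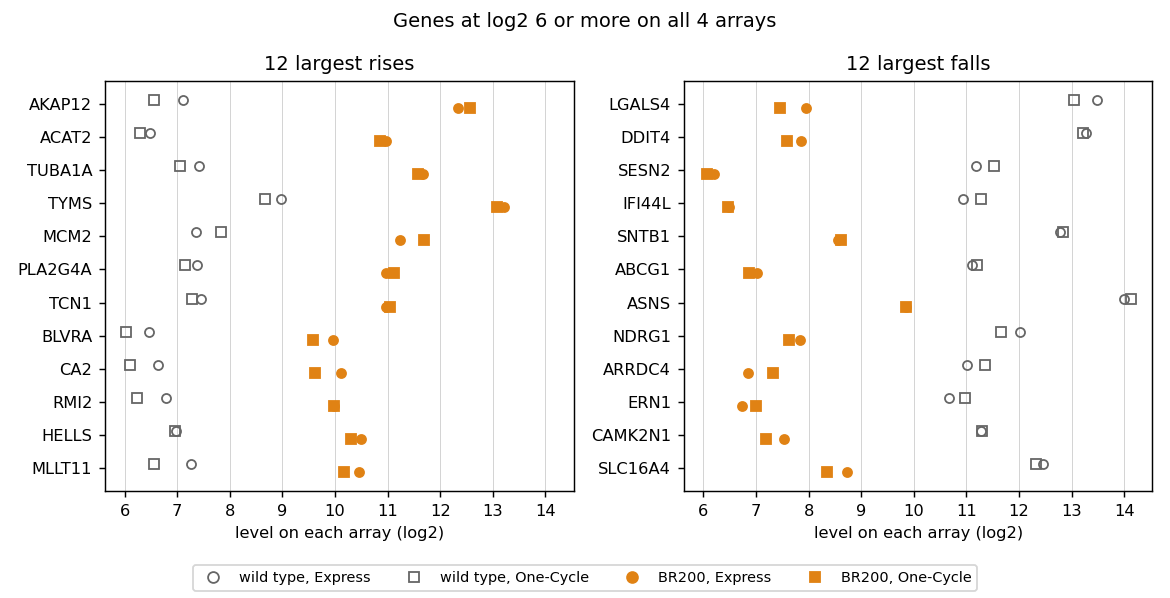
Log2 level on each array for the 12 largest rises and the 12 largest falls among called genes at log2 6 or more on all 4 arrays (grey wild type, orange BR200; circles Express, squares One-Cycle). The variants lie apart for all 24 genes, and the kits of one variant lie close together.

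Genes that ATF4 and CHOP are known to induce were lower in BR200 by wide margins. Of 18 tested, 15 were called lower (83.3%, against 31.2% of all genes), 1 higher and 2 not called, with a median of −2.84. Among the factors themselves, ATF4 was at 13.80 and 13.84 in wild type and 12.95 and 12.88 in BR200, a fall of 0.91 (SE 0.0689). DDIT3, which encodes CHOP, was at 11.08 and 10.93 in wild type and 7.54 and 7.21 in BR200, a 12.4-fold fall (adjusted p = 8.06e-05). DDIT4, an inhibitor of mTORC1, was at 13.28 and 13.22 in wild type and 7.85 and 7.60 in BR200. SESN2, another inhibitor of mTORC1, was at 11.18 and 11.52 in wild type and 6.21 and 6.06 in BR200. Neither gene came near overlapping between the variants, and the falls were 5.52 (SE 0.0911) and 5.21 (SE 0.145). TRIB3, a pseudokinase that CHOP induces, fell by 3.83, the lipoprotein receptor VLDLR by 4.33 and the stress factor NUPR1 by 5.08, to near background. The member that rose was ERO1A, an oxidase of the endoplasmic reticulum, at 0.94 (SE 0.0801); it lies on chromosome 14 and was at −0.28 without shared probe sets. ATF3 (0.33) and KLHL24 (−0.32) were not called.

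Amino acid supply genes were mostly lower, in synthesis and import and in part of charging. Of 12 genes of serine, asparagine and one-carbon synthesis, 11 fell (91.7%, against 31.2% of all genes) and 1 rose, with a median of −2.01. ASNS was at 13.99 and 14.13 in wild type and 9.86 and 9.84 in BR200, 18.6-fold lower, a log2 change of −4.21 (SE 0.0859) with adjusted p = 8.06e-05. ASS1, which makes argininosuccinate in arginine synthesis, was at 12.53 and 12.33 in wild type and 7.08 and 5.86 in BR200. CTH, which makes cysteine, fell by 3.56 (SE 0.0901), from 11.02 and 10.96 to 7.60 and 7.28. Along the serine pathway PHGDH fell by 1.94, PSAT1 fell by 2.75 and PSPH fell by 1.66. SHMT2 and MTHFD2, the mitochondrial one-carbon enzymes, each fell by 2.09. MTHFD1, their cytosolic counterpart, rose from 9.12 and 9.26 to 11.97 and 12.36, a change of 2.97 (SE 0.0887); it lies on chromosome 14 and supplies one-carbon units for purines and thymidylate.

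Transporters followed the same direction. Of 16 amino acid transporters, 12 fell (75.0%, against 31.2% of all genes), none rose and 4 were not called. Their median was −2.16. The light and heavy chains of the leucine exchanger, SLC7A5 and SLC3A2, were at 13.75 and 13.45 in wild type and 10.45 and 10.05 in BR200, and at 12.54 and 13.03 in wild type and 9.37 and 9.95 in BR200. Both pairs were separated by more than 2 log2 units. SLC43A1, a leucine carrier, fell by 5.22 (SE 0.174) and SLC1A4, a neutral amino acid carrier, by 4.92 (SE 0.134). SLC7A2, an arginine carrier, fell by 4.04 (SE 0.251) to near background. SLC7A11, which imports cystine, fell by 2.25 (SE 0.073).

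Charging of tRNA split by compartment. Of 17 cytosolic synthetases 11 fell and 5 rose (64.7% and 29.4%, against 31.2% and 35.4% of all genes), with a median of −0.96. Of 15 mitochondrial ones 9 rose (60.0%) and none fell, with a median of 0.42. The glycine enzyme GARS1, which serves both compartments, was at 14.16 and 14.08 in wild type and 12.15 and 11.98 in BR200. SARS1 (serine) fell by 2.02, AARS1 (alanine) by 1.89 and CARS1 (cysteine), in a chromosome 11 stretch in which 15 of 20 genes fell, by 1.85. The phenylalanine enzyme went the other way: its cytosolic alpha subunit FARSA rose by 1.45 (SE 0.119) and its mitochondrial form FARS2 by 2.38 (SE 0.114), from 7.26 and 6.76 to 9.55 and 9.23. Among mitochondrial enzymes LARS2 (leucine) rose by 1.29 and SARS2 (serine) by 1.03. The difference between the compartments as groups is a description of these counts.

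The unfolded protein response of the endoplasmic reticulum was lower, and its sensors with it. Of 26 genes 20 fell and 2 rose (76.9% and 7.69%, against 31.2% and 35.4% of all genes), with a median of −1.0. ERN1, the IRE1 sensor, was at 10.67 and 10.97 in wild type and 6.74 and 6.99 in BR200. The other sensors fell less, EIF2AK3 (PERK) by 1.44 and ATF6 by 1.47. HERPUD1, a degradation factor of that membrane, fell by 2.95 (SE 0.0663) and the co-chaperones DNAJB9 and DNAJB11 by 2.80 (SE 0.0677) and 2.25 (SE 0.0893); DNAJB11 lies in the chromosome 3 stretch in which 18 of 20 genes fell. The chaperone HSPA5 (BiP) was at 14.73 and 14.95 in wild type and 13.56 and 13.89 in BR200, a fall of 1.12 (SE 0.0683). The 2 that rose were CALR, a lectin chaperone, by 0.48 and CRELD2 by 0.68.

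Autophagy and lysosome genes moved both ways. Of 26 autophagy genes 13 fell and 8 rose (against 31.2% and 35.4% of all genes), with a median of −0.20. MAP1LC3B, the LC3 protein of autophagosomes, was at 12.09 and 12.83 in wild type and 9.47 and 10.48 in BR200. The initiating kinase ULK1 fell by 2.16 (SE 0.114) and the lipid-transfer protein ATG2A by 1.67 (SE 0.18). ATG10 and ATG14 rose, by 2.05 (SE 0.204) and 1.48 (SE 0.0715); ATG14 lies on chromosome 14. Lysosome and proton pump genes had 14 higher and 7 lower of 30 (46.7% and 23.3%), with a median of 0.10. The galactosidase GLA rose by 2.15 (SE 0.0934), the cholesterol carrier NPC2 by 1.88 (SE 0.0902) and the protease CTSH by 1.36 (SE 0.0683); GLA and NPC2 lie in stretches of chromosomes X and 14 where most neighbours rose. Cathepsin B (CTSB) fell by 0.90 (SE 0.0788). The autophagy counts depended on the arrays used: 7 lower and 3 higher without the replicate block, 4 higher without the Express and 5 higher and 7 lower without the One-Cycle array of BR200, and 5 higher without the Express and 4 higher and 8 lower without the One-Cycle array of wild type. For the lysosome list 9 rose and 2 fell without the block, and 3 and 4 fell without the One-Cycle array of BR200 or of wild type.

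DNA replication genes formed the list with the highest median change. Of 42 genes 40 were called higher and none lower, with a median of 2.53 (35.4% of all genes were higher). Of the genes of origin licensing and firing, MCM10 was at 3.36 and 3.62 in wild type and 8.92 and 9.0 in BR200, and ORC1 at 2.93 and 3.68 in wild type and 7.21 and 7.76 in BR200, while CDC6 and DBF4 rose by 0.92 (SE 0.167) and 0.24 (SE 0.0682). MCM10 and ORC1 were near background in wild type and well above it in BR200. Of the helicase ring, MCM2 was at 7.35 and 7.84 in wild type and 11.23 and 11.68 in BR200 and MCM5 at 5.0 and 5.03 in wild type and 9.60 and 9.75 in BR200, changes of 3.86 (SE 0.0758) and 4.66 (SE 0.0718). The polymerase epsilon subunit POLE2 rose by 5.29 (SE 0.0733). PCNA, the sliding clamp, rose from 10.89 and 10.90 to 13.70 and 13.77. The 2 not called were RFC5, a clamp loader subunit, at −0.03 (1.77 with its probe sets averaged), and GINS4 at 1.27, which among the wild type and BR200 arrays reached log2 4 on the One-Cycle array of BR200 alone.

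Supply of deoxynucleotides and DNA repair rose alongside. Of 23 nucleotide synthesis genes 19 rose and 2 fell (82.6% and 8.70%, against 35.4% and 31.2% of all genes), with a median of 1.44. TYMS, thymidylate synthase, was at 8.97 and 8.66 in wild type and 13.22 and 13.08 in BR200, a 20.2-fold difference, a log2 change of 4.34 (SE 0.0855) with adjusted p = 8.06e-05. RRM1, the large subunit of ribonucleotide reductase, rose by 2.79 (SE 0.0792) and thymidine kinase TK1 by 2.56 (SE 0.0835). The de novo purine and pyrimidine enzymes moved less, CAD by 1.50 and PAICS by 1.13. The 2 that fell were GMPS by 0.27 and SAMHD1, which breaks down deoxynucleotides, by 0.24 (a change of +0.11, not called, with its probe sets averaged).

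Of 30 repair and Fanconi genes 23 rose and 2 fell (76.7% and 6.67%, against 35.4% and 31.2% of all genes). Their median was 1.73. The helicase BRIP1 was at 4.65 and 3.68 in wild type and 8.40 and 7.90 in BR200. The exonuclease EXO1 was at 4.02 and 4.31 in wild type and 7.91 and 8.12 in BR200, and DDB2, a damage sensor for ultraviolet lesions, at 3.91 and 3.78 in wild type and 7.79 and 7.37 in BR200. Wild type levels of EXO1, BRIP1 and DDB2 were all under 5. The helicase BLM rose by 3.21 (SE 0.146) and the checkpoint kinase CHEK1 by 2.87 (SE 0.0644). The damage kinases ATR and ATM were the members that fell, by 0.64 (SE 0.0793) and 0.53 (SE 0.105).

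Entry into S phase and mitosis showed smaller and less uniform differences. Among 26 G1/S regulators 13 rose and 6 fell. The cyclins CCNE2 and CCNE1 were at 4.34 and 3.94 in wild type and 9.22 and 8.84 in BR200, and at 5.85 and 5.22 in wild type and 8.93 and 8.84 in BR200. Inhibitors of cyclin-dependent kinases fell: CDKN2B by 1.84 (SE 0.103), CDKN1A (p21) by 1.73 (SE 0.0771) and CDKN1C by 1.07 (SE 0.147), the last in a stretch of chromosome 11 where most genes fell. CCND1 (0.01) and RB1 (−0.09) were not called. In that list 3 were lower without the block. Of 36 mitosis genes 21 rose, 3 fell and 12 were not called, and the median was 0.46, against 2.53 for replication. MAD2L1, a spindle checkpoint protein, rose by 1.63 (SE 0.0686) and the APC activator CDC20 by 1.57 (SE 0.088). AURKA (−0.12) and PLK1 (0.21), kinases of mitotic entry, were not called. The proliferation marker MKI67 rose by 0.73 (SE 0.124). Of 17 histone genes 4 rose and 7 fell (23.5% and 41.2%). H2AC6 fell by 2.47 (SE 0.0879) and H2BC21 by 1.54 (SE 0.075), and near-identical histone genes may share signal.

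**Figure D3:**
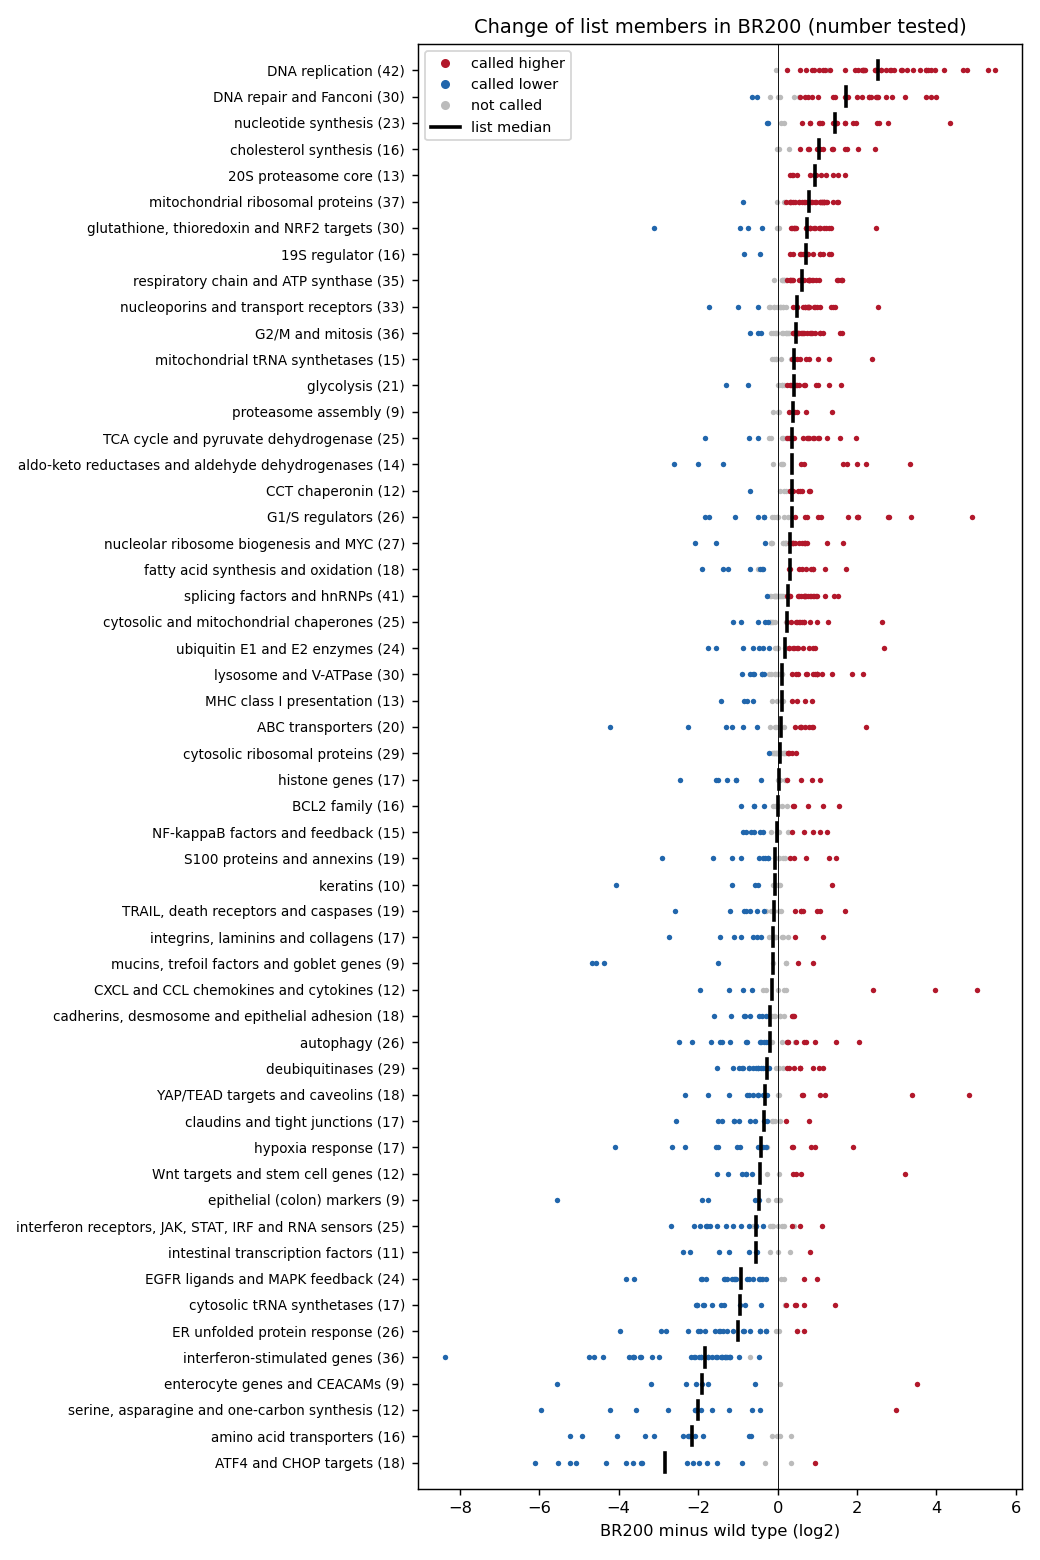
Log2 change (BR200 minus wild type) of every tested member of gene lists with at least 9 tested members, ordered by median (black bars); red points were called higher, blue lower and grey not called, and the number tested follows each name. DNA replication has the highest median (2.53) and ATF4 and CHOP targets the lowest (−2.84), while ribosomal proteins and ABC transporters centre near 0.

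Most mitochondrial ribosomal proteins were higher, and most cytosolic ones were not called. Of 29 cytosolic ribosomal proteins 23 were not called, where 66.5% of all genes were called. Their median level was 15.12 in wild type and 15.10 in BR200, against 10.22 and 11.02 for the mitochondrial ones. Whether levels this high limit a measured change was not tested. Of 37 mitochondrial ribosomal proteins 33 rose and 1, MRPS10, fell (median 0.79). MRPS27 was at 8.71 and 9.09 in wild type and 10.21 and 10.66 in BR200, and MRPL9 at 10.50 and 10.16 in wild type and 11.98 and 11.65 in BR200. Nucleolar genes had 14 higher and 3 lower of 27 (51.9% and 11.1%, against 35.4% and 31.2% of all genes). UTP20, a factor of small subunit assembly, rose by 1.64 (SE 0.119). Without the block 21 mitochondrial ribosomal and 8 nucleolar genes were called higher, and the nucleolar count was 7 without the Express and 8 without the One-Cycle array of BR200. MYC was not called (0.20 (SE 0.0906), adjusted p = 0.111), while its antagonists MXD1 and MXI1 fell by 2.09 (SE 0.109) and 1.54 (SE 0.11). Splicing factors had 22 higher and 1 lower of 41 (53.7% and 2.44%), with SF3A1 at 1.52 (SE 0.085). Of 33 nucleoporins and transport receptors 19 rose and 3 fell (57.6% and 9.09%). NUP37 rose by 2.52 (SE 0.0737), and the importin KPNA4 and the nucleoporin NUP98 fell by 1.74 (SE 0.0665) and 0.99 (SE 0.0779). Without the block 12 splicing factors were called higher.

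Respiratory chain genes were mostly higher. Of 35 respiratory chain and ATP synthase genes 27 rose and none fell (median 0.61), against 35.4% and 31.2% of all genes. The complex I subunits NDUFB8 and NDUFB6 rose by 1.62 (SE 0.0949) and 1.61 (SE 0.0766) and the ATP synthase subunit ATP5MC1 by 1.60 (SE 0.0711). In the citrate cycle list 15 of 25 rose and 3 fell. IDH2, the mitochondrial isocitrate dehydrogenase, was at 8.56 and 8.59 in wild type and 10.40 and 10.69 in BR200. MDH1, malate dehydrogenase of the cytosol, rose by 1.56 (SE 0.0789). PDK4 and PDK1, kinases that switch off pyruvate dehydrogenase, fell by 1.83 (SE 0.225) and 0.71 (SE 0.0975). With no replicate block 14 respiratory and 6 citrate cycle genes were called higher, the latter of 25 tested, a share near the 2177 of all 10370 genes higher in that fit.

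Genes of glycolysis were more often higher than lower. Of 21 genes 13 rose and 2 fell, against 35.4% and 31.2% of all genes. The glucose transporter SLC2A1 fell by 1.31 (SE 0.12) and the enzyme PFKFB2 by 0.74 (SE 0.119), while ALDOC rose by 1.61 (SE 0.179), PFKM by 1.28 (SE 0.1) and TPI1 by 1.01 (SE 0.064). Without the block 7 rose, and without the Express array of BR200 8. In the hypoxia list 11 of 17 fell and 5 rose. NDRG1 was at 12.02 and 11.65 in wild type and 7.83 and 7.63 in BR200, and the growth factor VEGFA at 13.44 and 13.91 in wild type and 10.96 and 11.05 in BR200. HILPDA, which coats lipid droplets, rose by 1.90 (SE 0.0787), and HIF1A, on chromosome 14, by 0.85 (SE 0.066).

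Cholesterol synthesis was higher and fatty acid genes were mixed. Of 16 cholesterol genes 13 rose (81.2%, against 35.4% of all genes) and none fell, with a median of 1.05. FDPS, farnesyl diphosphate synthase, was at 9.76 and 9.28 in wild type and 12.17 and 11.77 in BR200. ACAT2, which makes the acetoacetyl-CoA that starts the pathway, was at 6.48 and 6.29 in wild type and 10.96 and 10.86 in BR200, a rise of 4.52 (SE 0.081). HMGCS1 rose by 2.03 (SE 0.0726) and IDI1 by 1.74 (SE 0.069). Of 18 fatty acid genes 10 rose and 7 fell (55.6% and 38.9%, against 35.4% and 31.2% of all genes). The synthase FASN rose by 1.71 (SE 0.153). The regulator PPARA fell by 1.90 (SE 0.112) and CPT1A, which admits fatty acids to mitochondria, by 1.24 (SE 0.0925). Without the One-Cycle array of BR200 4 fatty acid genes were called lower, and without the block 3.

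Glutathione and thioredoxin genes were mostly higher. Of 30 tested 23 rose and 4 fell (76.7% and 13.3%, against 35.4% and 31.2% of all genes), with a median of 0.73. The peroxidase GPX3 was at 4.81 and 6.78 in wild type and 7.60 and 8.92 in BR200. PRDX2, a peroxiredoxin, rose by 1.35 (SE 0.0744) and GCLM, a subunit of glutathione synthesis, by 1.28 (SE 0.0831). GPX8 fell by 3.10 (SE 0.192) and SRXN1, a classical NRF2 target, by 0.95 (SE 0.0728). The list had 15 higher members without the replicate block. Of 14 aldo-keto reductases and aldehyde dehydrogenases 7 rose and 3 fell. ALDH1A3, which makes retinoic acid, was at 7.56 and 7.78 in wild type and 11.05 and 10.98 in BR200, and AKR1B10 fell by 2.60 (SE 0.103). AKR7A2 rose by 2.24 (SE 0.0787) and ALDH2 fell by 2.01 (SE 0.0817). Metallothioneins rose in 6 of 6, from 0.65 (MT1H) to 0.91 (MT1F), but all 6 rest on probe sets shared among near-identical genes, and without the replicate block none was called. The zinc exporter SLC30A1, which responds to the same factor MTF1, fell by 2.78 (SE 0.069).

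Interferon-stimulated genes were lower in BR200 than in wild type, and less so than in BR100. Of 36 genes 35 were called lower than wild type (97.2%, against 31.2% of all genes), with a median of −1.83. HERC5 was not called. The antiviral GTPase MX1 was at 10.56 and 10.52 in wild type, 6.89 and 6.98 in BR200 and 4.71 and 4.44 in BR100. IFIT1, which binds viral RNA, was at 12.74 and 12.69, 10.65 and 10.40 and 8.81 and 8.49 in the same order. ISG15, the ubiquitin-like modifier, was at 14.67 and 14.39, 13.57 and 13.11 and 12.73 and 12.31. For all 3 genes BR200 lay between the other variants on both kits, with no overlap. For LAMP3, BST2, TRIM22 and SAMD9L, as for HERC5, no difference between BR200 and BR100 was called, at 0.51 (SE 0.468), 0.02 (SE 0.0975), 0.25 (SE 0.0899), 0.14 (SE 0.139) and 1.27 (SE 0.248).

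The contrast of BR200 with BR100 called 1102 of 10370 genes (10.6%), 663 higher (6.39%) and 439 lower (4.23%) in BR200, 248 of them by at least 2-fold. These calls depend on all 4 arrays: without either BR200 array or either BR100 array limma called 0, with 1953 to 2135 genes at an unadjusted p under 0.05, and without either wild type array it called 61. Without the replicate block it called 112. With all arrays, no gene of the DNA replication, respiratory chain and ATP synthase or mitochondrial ribosomal lists was called between the resistant variants. Their medians were −0.08, −0.03 and −0.12. Of 26 genes of the unfolded protein response 1 was called, lower in BR200. Of the interferon-stimulated genes 31 of 36 were called higher in BR200 than in BR100 and none lower, with a median of 1.53. On both kits 33 of 36 were higher, against 3542 of all 10370 genes. XAF1, a pro-apoptotic interferon target, was at 6.67 and 6.38 in BR200 and 2.67 and 2.67 in BR100. IFI44L was at 6.48 and 6.46 in BR200 and 2.87 and 2.41 in BR100. BR100 was near background for both, and the differences were 3.86 (SE 0.102) (adjusted p = 0.00283) and 3.83 (SE 0.204) (adjusted p = 0.00525).

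**Figure D4:**
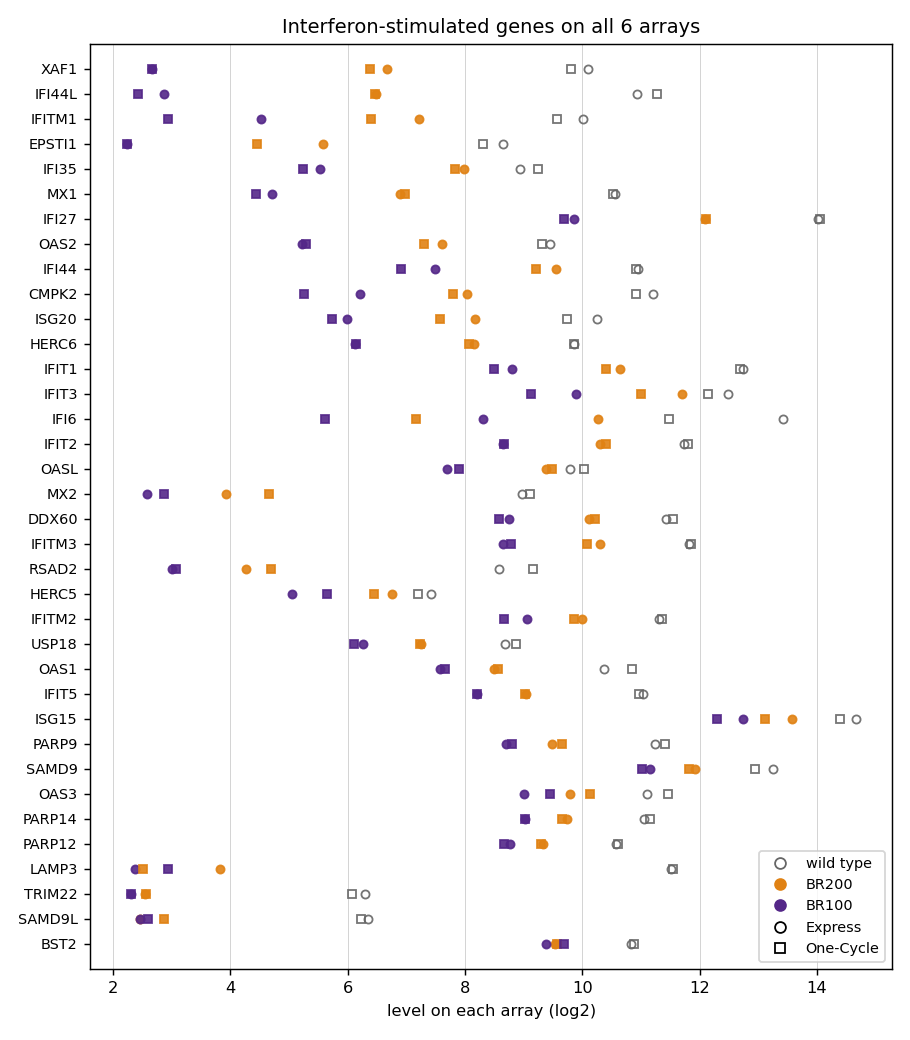
Log2 level of the 36 interferon-stimulated genes on all 6 arrays (grey open symbols wild type, orange BR200, purple BR100; circles Express, squares One-Cycle), ordered by the difference between BR200 and BR100. For most genes BR200 lies between BR100 on the left and wild type on the right; LAMP3, TRIM22, SAMD9L and BST2 at the bottom show BR200 close to BR100.

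The upstream parts of interferon signalling were lower in part. Of 25 receptor, kinase, factor and sensor genes 14 were lower than wild type and 3 higher, and 6 were higher than BR100. IRF7, the factor that amplifies interferon, was at 9.82 and 10.26 in wild type and 7.26 and 7.44 in BR200. IRF9, part of the factor that binds the interferon response element, fell by 1.53 (SE 0.145), and the RNA sensors RIGI and IFIH1 by 1.95 (SE 0.0677) and 1.80 (SE 0.0875). JAK1 fell by 1.29 and the receptor chain IFNAR2 by 1.12. CGAS, the DNA sensor, rose by 1.13 (SE 0.15).

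Genes of antigen presentation took several directions. Of 13 MHC class I genes 4 rose, 4 fell and 5 were not called against wild type. The shares were 30.8% higher and 30.8% lower, near the 35.4% and 31.2% of all genes. Against BR100 8 were higher, where 6.39% of all genes were. The peptide transporters TAP1 and TAP2 fell by 0.78 (SE 0.0975) and 1.42 (SE 0.0861). The trimming enzyme ERAP2 rose by 0.88 (SE 0.0695) and TAPBP, which loads peptides, by 0.70 (SE 0.0772). B2M, the light chain, was at 14.92 and 14.79 in wild type and 14.90 and 14.78 in BR200 and not called. HLA-B (0.11) and HLA-C (0.14) were not called either, and probe sets of HLA genes can share signal. Against BR100, PSMB9 was higher by 2.30 (SE 0.0857) and PSMB8 by 1.62 (SE 0.0967).

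Other genes differed between BR200 and BR100. GBP1, a GTPase that interferon induces, was at 7.61 and 7.59 in wild type, 8.52 and 8.21 in BR200 and 5.38 and 5.12 in BR100. CAVIN2, a protein of caveolae, was at 2.36 and 2.23, 6.49 and 5.52 and 2.94 and 2.92, and the peroxisomal isomerase ECI2 at 2.74 and 2.64, 6.93 and 6.09 and 3.82 and 2.90. BR200 was thus the highest of the 3 variants for each of these. Higher than in BR100 but lower than in wild type were VNN1 (3.15 and −1.32), DNAJC15 (3.13 and −2.63) and the secreted CCN2 (3.18 and −0.63). The largest negative difference from BR100 was that of IQGAP2, a scaffold protein, at 9.31 and 9.45, 6.46 and 6.07 and 8.86 and 8.93 in the same order of variants. ONECUT2, a transcription factor, differed from BR100 by −2.33 (SE 0.129), the chloride channel CFTR by −1.76 (SE 0.245) and the bicarbonate transporter SLC4A4 by −1.66 (SE 0.271). All 3 were lowest in BR200, as were PUDP (−1.96), the zinc finger protein ZNF331 (−1.79), TMEM117 (−1.73), SSBP2 (−1.71) and SLC43A1 (−1.66). The signalling regulator RGS7 (−1.82) lay between wild type and BR100. The synaptotagmin SYT13 was at 7.18 and 6.69 in wild type, 8.90 and 8.62 in BR200 and 5.71 and 5.61 in BR100. TNFSF10, the death ligand TRAIL, was at 8.48 and 9.34, 9.09 and 9.91 and 5.80 and 7.07, so BR100 stood under both other variants. The same held for the chemokine CXCL2 and for AKR1C1, AKR1C2 and AKR1C3, which were not called against wild type and differed from BR100 by 2.78 (SE 0.0756), 2.42 (SE 0.165), 1.98 (SE 0.0656) and 2.24 (SE 0.0912); the AKR1C genes are near-identical and their probe sets may share signal. Cholesterol synthesis genes were lower than in BR100 in 11 of 16 (4.23% of all genes were), with a median of −0.51. BR200 thus lay between wild type and BR100 there as well.

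The stress gene ATF3 stood apart among ATF4 targets in this contrast. It was at 9.42 and 9.28 in wild type, 9.78 and 9.58 in BR200 and 5.61 and 4.63 in BR100, a difference of 4.56 (SE 0.235) between the resistant variants. The phosphatase subunit PPP1R15A (1.48), TXNIP (1.58) and the cytokine GDF15 (0.94) were also higher than in BR100, and DDIT4 was lower (−1.42).

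Growth factor signalling genes were lower. Of 24 EGFR ligands, receptors and MAPK feedback genes 19 fell and 2 rose (79.2% and 8.33%, against 31.2% and 35.4% of all genes). Their median was −0.91. EGFR itself was at 11.14 and 10.85 in wild type and 9.44 and 8.97 in BR200, and ERBB3 at 12.57 and 12.26 in wild type and 10.74 and 10.28 in BR200. The ligands HBEGF and EREG fell by 3.62 (SE 0.228) and 1.93 (SE 0.0844). ETV5, a factor that MAPK signalling induces, fell by 3.81 (SE 0.154). This gene is 1 of the 18 of 20 that fell in the chromosome 3 stretch, and the part of location was not tested. JUN and DUSP1 were the 2 that rose, by 0.99 (SE 0.0899) and 0.67 (SE 0.0828). The list had 12 lower members without the block.

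NF-kappaB genes were called about as often as all genes, and chemokine genes moved both ways. Of 15 NF-kappaB genes 5 rose and 6 fell (33.3% and 40.0%, against 35.4% and 31.2% of all genes); the inhibitor NFKBIA rose by 1.06 (SE 0.0968) and RELA fell by 0.80 (SE 0.0693). NFKBIA lies on chromosome 14. Without the Express or the One-Cycle array of BR200 3 and 3 were called lower, and without the Express array of wild type 3. Among 12 chemokine and cytokine genes the neutrophil attractants CXCL8, CXCL6 and CXCL1 were higher, and CXCL11, CCL5, IL18 and LIF were lower. CXCL8 was at 6.47 and 5.89 in wild type and 10.28 and 10.0 in BR200. CXCL6 was at 2.35 and 2.45 in wild type and 7.86 and 6.96 in BR200, from near background. The interferon-inducible CXCL11 fell by 1.96 (SE 0.137) and CCL5 by 1.23 (SE 0.339).

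Caveolin 1 was among the larger rises. CAV1 was at 5.74 and 5.0 in wild type and 10.21 and 10.18 in BR200, a change of 4.83 (SE 0.205), and its partner CAV2 rose by 1.20 (SE 0.0701). Of 18 caveolin and YAP/TEAD genes 6 rose and 10 fell (33.3% and 55.6%, against 35.4% and 31.2% of all genes). The coactivator WWTR1 (TAZ) rose by 3.39 (SE 0.378) from near background, YAP1 fell by 0.36 (SE 0.0944), and the targets AMOTL2 and AXL fell by 2.33 (SE 0.126) and 1.75 (SE 0.141). Without the One-Cycle array of BR200 6 of the list fell. Of 18 mesenchymal genes only 4 passed the filter; FN1, fibronectin, was at 3.50 and 3.78 in wild type and 8.46 and 8.52 in BR200, and TGFBI rose by 1.46 (SE 0.095), while tenascin TNC and S100A4 fell by 1.12 (SE 0.15) and 0.47 (SE 0.109). VIM, ZEB1, SNAI1 and TWIST1 were below the filter.

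Most enterocyte genes that passed the filter were lower, and mucin and goblet genes were mixed. Of 22 enterocyte and CEACAM genes only 9 passed the filter. Of these 7 fell and 1 rose (77.8% and 11.1%, against 31.2% and 35.4% of all genes). LGALS4, galectin 4, was at 13.48 and 13.04 in wild type and 7.94 and 7.46 in BR200, a 47.2-fold difference, a log2 change of −5.56 (SE 0.097) with adjusted p = 8.06e-05. CEACAM6, an adhesion molecule, was at 11.74 and 11.43 in wild type and 8.68 and 8.11 in BR200. DPP4, a peptidase of the brush border, fell by 2.04 (SE 0.0814) and VIL1, villin, by 1.75 (SE 0.0921). CA2, carbonic anhydrase 2, was the one that rose, at 6.63 and 6.11 in wild type and 10.12 and 9.63 in BR200. Of 24 mucin, trefoil and goblet genes 9 passed, with a median of −0.13. Of these 2 rose (22.2%), 4 fell (44.4%) and 3 were not called. The mucins MUC20 and MUC4 rose by 0.90 (SE 0.0707) and 0.52 (SE 0.105). The secreted factors TFF1 and AGR3 and the mucin MUC13 fell by 4.58 (SE 0.118), 4.67 (SE 0.182) and 4.37 (SE 0.207), all to near background in BR200. AGR2, a relative of AGR3, fell by 1.50 (SE 0.0824). Of the transcription factors HNF4G fell by 2.39 (SE 0.0977), FOXA3 by 2.21 (SE 0.0775) and KLF4 by 1.48 (SE 0.106), while FOXA1, on chromosome 14, rose by 0.82 (SE 0.138).

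General epithelial genes were mixed. EPCAM was not called (−0.25 (SE 0.0833), adjusted p = 0.0529), nor were KRT8, KRT18 and KRT19. Of the 9 colon epithelial markers tested, KRT20, CDH1, LGALS4, VIL1 and CEACAM5 were the 5 called lower, and none was higher. KRT20 was at 14.75 and 14.49 in wild type and 14.19 and 13.93 in BR200. CDH1 was at 14.03 and 14.17 in wild type and 13.52 and 13.72 in BR200. KRT23 fell by 4.07 (SE 0.158) to near background and KRT80 by 1.15 (SE 0.0682). Among tight junction genes 10 of 17 fell and 2 rose (58.8% and 11.8%, against 31.2% and 35.4% of all genes). CLDN1, in the chromosome 3 stretch, fell by 2.57 (SE 0.0825). The splicing regulator ESRP1 fell by 1.60 (SE 0.074) and the laminin chain LAMB3 by 2.72 (SE 0.0917). Of 24 S100 proteins and annexins 19 passed: S100A14 fell by 2.91 (SE 0.0706), S100P by 1.15 (SE 0.0868), and ANXA9 rose by 1.47 (SE 0.0699). In that list 9 fell and 5 rose, with 4 lower without the replicate block, 4 and 4 without the Express or the One-Cycle array of BR200 and 5 without the One-Cycle array of wild type. In the Wnt list CD44 fell by 1.52 (SE 0.0686) and the inhibitor DKK1 rose by 3.20 (SE 0.0798), from 8.73 and 8.68 to 12.04 and 11.78.

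Cell death and drug export genes moved both ways, at shares near those of all genes (35.4% higher and 31.2% lower). Of 16 BCL2 family genes 5 rose and 4 fell. The pro-apoptotic BAX was at 8.0 and 6.96 in wild type and 9.41 and 8.66 in BR200, and BID rose by 1.15 (SE 0.0655). MCL1 fell by 0.58 (SE 0.0689) and PMAIP1 (NOXA) by 0.92 (SE 0.113). BCL2L1 had a change of −0.33 (SE 0.0769), and of 0.08 with its probe sets averaged. TNFRSF10B, the TRAIL receptor that CHOP induces, was at 12.07 and 11.95 in wild type and 9.58 and 9.27 in BR200, a fall of 2.59 (SE 0.0873). CASP6 rose by 1.70 (SE 0.0824) and APAF1 by 0.99 (SE 0.0723). ABCB1, the classical drug exporter, was at the floor of 2.23 throughout. ABCG2 rose from 6.30 and 6.39 to 8.46 and 8.67, a change of 2.22 (SE 0.118), and ABCG1, a sterol exporter, fell by 4.21 (SE 0.119). Of 20 ABC transporter genes 9 rose and 6 fell (45.0% and 30.0%).

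The largest single changes included genes outside these groups. The anion transporter SLC26A9 was at 3.08 and 3.47 in wild type and 9.40 and 9.47 in BR200, and SRPX2, a secreted protein, at 2.55 and 2.55 in wild type and 8.09 and 8.32 in BR200. AKAP12, a scaffold for protein kinase A, was at 7.11 and 6.55 in wild type and 12.34 and 12.57 in BR200; unlike the other leaders it was well above background in both variants. PHACTR3, CD99, NUDT7 and MAMDC2 rose by 5.29, 5.13, 5.05 and 4.94, all from near background. The tubulin TUBA1A rose by 4.39 (SE 0.089), the phospholipase PLA2G4A by 3.79 (SE 0.11), the cobalamin binder TCN1 by 3.64 (SE 0.111) and BLVRA, biliverdin reductase, by 3.52 (SE 0.0698). RMI2, HELLS and MLLT11 completed the 12 largest rises among well-measured genes, at 3.48, 3.43 and 3.40.

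On the falling side TM4SF4, a membrane protein of the tetraspanin-like family, was at 12.60 and 12.66 in wild type and 2.25 and 2.23 in BR200. The netrin receptor UNC5B was at 10.84 and 11.77 in wild type and 2.87 and 2.36 in BR200, and LAMP3, a lysosomal protein, at 11.51 and 11.55 in wild type and 3.82 and 2.51 in BR200. NIBAN1, a stress-induced protein, was at 12.64 and 12.38 in wild type and 4.56 and 3.88 in BR200. Wild type levels of these 4 genes were above 10 on both kits, and in BR200 TM4SF4, UNC5B and LAMP3 were near background. CLGN, INHBE, KCTD15, MYRFL, CLRN3, PIP5K1B and IL20RB fell by 6.41 to 8.22, likewise to near background, and G0S2 by 6.78 (SE 0.127). Among well-measured genes SNTB1 fell by 4.22 (SE 0.066), ARRDC4 by 4.10 (SE 0.0727), CAMK2N1 by 3.92 (SE 0.119) and the monocarboxylate carrier SLC16A4 by 3.84 (SE 0.16).

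Called genes were spread unevenly over the chromosomes. On chromosome 14, 233 of 349 genes tested were higher (66.8%) and 33 lower (9.46%), with a median of 0.66, against 35.4%, 31.2% and 0.04 over all genes. Chromosome 11 had 44.8% lower, chromosome 13 had 44.2%, chromosome 8 had 41.8% and chromosome 3 had 40.7%. In sliding runs of 20 neighbouring genes tested, 9915 in all, medians had a 5th percentile of −0.39 and a 95th of 0.49. The run with the highest median was on chromosome X from DIAPH2 to TCEAL1 (chrX:96684842-103630953, GRCh38.p14), at 2.08 with 14 genes higher and 4 lower. It holds SRPX2, SYTL4 (4.61), TSPAN6 (2.43), the oxidase NOX1 (2.14) and GLA. The next ones were on chromosome 14, from NUMB to DLST (chr14:73275216-74903743) at 1.14 and from IPO4 to DTD2 (chr14:24180219-31457506) at 1.11, with 16 of 20 genes higher in each. The second of these holds NEDD8, a ubiquitin-like modifier, at 1.59 (SE 0.101).

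The lowest runs adjoined each other on the long arm of chromosome 3. From FAM131A to IL1RAP (chr3:184335926-190659750) the median was −1.82, with 18 of 20 genes lower, among them TMEM41A (−3.06), LPP (−2.58) and IGF2BP2 (−2.16). From USP13 to EIF4G1 (chr3:179653040-184335358) it was −0.91, with 16 lower and none higher, among them LAMP3, DVL3 (−3.77), AP2M1 (−2.01) and PSMD2. The sixth run lay on chromosome 11 from MOB2 to NUP98 (chr11:1469448-3797554) at −0.88. Against BR100 the medians of these 6 runs lay between −0.13 and 0.22. All runs were picked by the same changes, so their counts are no separate evidence on the genes they hold. The DNA content of these regions was not analysed here.

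**Figure D5:**
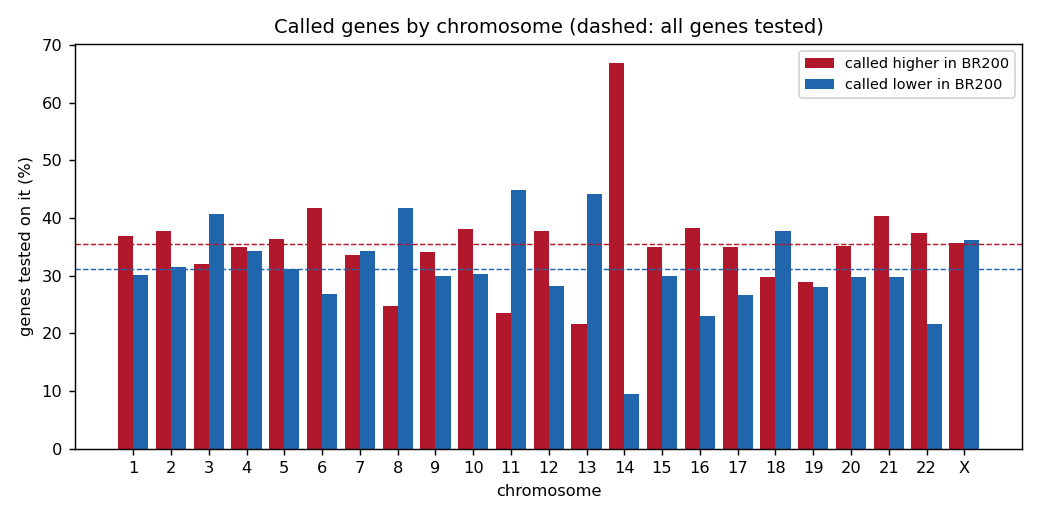
Share of the genes tested on each chromosome that were called higher (red bars) or lower (blue bars) in BR200, with dashed lines at the shares over all genes (35.4% and 31.2%). Chromosome 14 stands out with 66.8% higher and 9.46% lower. Chromosomes 3, 8, 11 and 13 have the largest shares lower, and chromosomes 7, 18 and X also have more genes lower than higher.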

How the data were processed

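Total RNA of each variant was hybridised to 2 Affymetrix expression arrays, 1 per labelling kit. The authors deposited log2 values computed with GCRMA, per the submitters' processing notes; its version is not given in the sources used here. GCRMA subtracts a background estimated from probe sequence, and 34.8% to 35.3% of the 54675 probe sets on each array lie at its floor of 2.23. Such values carry no read depth, and the number of arrays limits the precision.

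Probe sets were named through the platform annotation, updated by gene ID with the reference table: 41097 name 1 gene, 1801 several and 11777 none, and those naming several or none were not used. Of the 19775 genes, the probe set with the highest mean stood for each, and 10370 reached log2 4 on at least 2 of 6 arrays. limma (version 3.58.1, R 4.3.3) fitted variant and kit to all 6 arrays, with 2 residual degrees of freedom and 2.33 from the prior, and p-values were adjusted over all genes tested by Benjamini and Hochberg's method. The method was first tested on simulated data. The kit is shared by same-numbered arrays per the labels, and deviations from the variant means correlated at 0.776, 0.762 and 0.845 between variants.

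Members and the 62 gene lists were chosen with earlier results of these data known. Named genes were the 12 largest rises and falls, the same among genes at log2 6 or more on all 4 arrays, up to 5 called members per list, the 10 largest differences each way from BR100 among genes called in both contrasts, runs of 20 neighbouring genes, and a fixed set around the proteasome and its stress responses. Any other list member was named after its values were seen. Some genes and 1 list are not reported here.

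Alternatives were a fit without the kit, the 4 arrays alone, no filter or a stricter one, averaged probe sets, no shared probe sets, quantile normalization, median centring, another prior, and each array left out. No chromosome copy number, protein or drug response data were used here.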

Additional observations from a re-analysis of the deposited data

Results flagged for a closer look

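Of the genes picked for naming, GBP1, SYT13, PSMB8, TNFSF10 and DUSP1 moved in opposite directions from wild type in the resistant variants. They did so on every array of each and were called different between these variants by limma. Other genes tested were not checked for this pattern. GBP1, a GTPase that interferon induces, was 0.77 higher than wild type in BR200 and 2.35 lower in BR100 on the log2 scale (−2.35), a difference of 3.12 (adjusted p = 0.00283). SYT13, a synaptotagmin, was at 1.83 in BR200 and −1.28 in BR100 relative to wild type, a difference of 3.10 (adjusted p = 0.00341). PSMB8, a catalytic subunit of the immunoproteasome, was at 1.10 and −0.53, a difference of 1.62 (adjusted p = 0.00645). TNFSF10, which encodes the death ligand TRAIL, differed by 3.07 and DUSP1, a phosphatase of MAP kinases, by 1.79 between the variants, again higher than wild type in BR200 and lower in BR100. Both contrasts use the same wild type arrays. These calls share the limit given for the contrast between the resistant variants, which called no gene without any 1 of their 4 arrays.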

How the results depend on the processing

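For BR200 against wild type, 6901 genes were called with all arrays and the kit in the model. Without the replicate block for the kit 4100 were called (2177 higher, 1923 lower), all of them among the 6901 and in the same direction. Without a filter on low values 2153 genes were lower. Leaving out each array in turn gave 5162 to 6457. Of 352 genes followed singly, 3 changed sign with averaged probe sets and 1 without shared probe sets, and none under the other settings. Sign changes count only where a gene was called in either fit. For BR200 against BR100, where 1102 genes were called, the count was 112 without the replicate block (95 higher, 17 lower), 61 with only the 4 arrays of these variants (56 and 5), 15 with no filter (11 and 4) and 2254 with a trended, robust prior (1145 and 1109). The stricter filter gave 726 lower, and leaving out shared probe sets gave 276 lower. Leaving out each array in turn gave 0 to 61 (higher 0 to 56, lower 0 to 5). With averaged probe sets BCL2L1 was at 0.08, SAMHD1 at 0.11 and RFC5 at 1.77, and without shared probe sets ERO1A was at −0.28. List medians that changed sign were −0.37 for MHC class I genes and −1.75 for the metallothionein list without shared probe sets, and 0.20 for chemokines with the stricter filter. The causes were not tested. The median change of all genes was 0.07 after quantile normalization and 0.00 after centring. With 2 arrays per variant and no stated separate cultures, the calls describe these RNA samples. Values near log2 4 or less depend on the background estimate, so folds of genes that reach it are uncertain.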
